A study of Homo sapiens with 12 samples.

Results

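The control cells of LK-2 and of RERF-LC-AI, established human lines labelled as lung squamous cell carcinoma (LUSC), were compared here with each other. The members are the 6 control libraries of the 12 in the series, 3 of LK2-ctrl and 3 of LC-AI-ctrl, chosen by the label of the line and of the control. Both groups are pools of blasticidin-resistant clones that stably carry a lentiviral vector for the green fluorescent protein ZsGreen and no maspin transgene. LK2-ctrl cells were kept in RPMI1640 and LC-AI-ctrl cells in Eagle's minimum essential medium, so that the medium differs with the line. The other 6 libraries, LK2-maspin and LC-AI-maspin, carry maspin beside ZsGreen and served only as a second look at the same lines. Poly(A) RNA was sequenced, and the reads of the 2 lines were tabulated separately, so that line, medium and batch cannot be told apart. For this reason the text turns on differences of at least 16-fold. Whether the 3 libraries per group were grown apart is not stated, and p-values therefore measure the spread between these libraries, which may be technical.

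Named genes received 44278486 to 54941357 counts per LK2-ctrl library and 50143577 to 57558323 per LC-AI-ctrl library. At least 1 count was seen for 32858 to 33299 genes in LK2-ctrl and for 32317 to 32358 in LC-AI-ctrl libraries (two-sided exact permutation test, p = 0.1, the smallest that 3 against 3 libraries allow). Principal component 1 separated the lines and accounted for 90.1% of the variance. Between libraries of one line, log2 levels correlated across genes at 0.986 to 0.990, and between the lines at 0.851 to 0.858. The spread was wider in LK2-ctrl, with a biological coefficient of variation of 12.2% against 6.40% in LC-AI-ctrl. Levels are given as CPM, counts scaled to a common library total after TMM correction. They grow with the length of a transcript, so that levels set beside each other for different genes, or summed over genes, are rough. The log2 difference of a gene is LK2-ctrl minus LC-AI-ctrl. It was tested with edgeR's quasi-likelihood test and Benjamini–Hochberg adjustment over all genes tested. The SE given with it is approximate, the size of the difference divided by the square root of the test's F statistic. This SE can be too small where 1 line has few counts.

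Squamous cells of the airway are known by the transcription factors TP63 and SOX2, by keratins of the basal layer such as KRT5 and KRT14, and by desmosomal proteins. Epithelial cells in general hold together through E-cadherin (CDH1), whereas mesenchymal cells use vimentin filaments and a fibrous matrix. Carcinoma lines range between these states, and each line also keeps traces of its tissue of origin in its HOX genes and lineage factors.

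Over all 26179 genes tested, 16703 differed at an adjusted p under 0.05, which is 63.8% of them, with 8413 (32.1%) higher in LK2-ctrl and 8290 (31.7%) higher in LC-AI-ctrl. A call of difference alone therefore says little about a gene. A difference was called large where, in addition, the log2 difference was at least 4 in size, the higher line averaged at least 1 CPM and the libraries of the 2 lines did not overlap. This held for 1165 genes, 4.45% of those tested, of which 634 (2.42%) were higher in LK2-ctrl and 531 (2.03%) higher in LC-AI-ctrl. With the scaling by library size only, 10775 genes were called higher and 6824 lower in LK2-ctrl, and the median log2 difference of all genes moved from 0.10 to 0.32. Large calls then numbered 700 toward LK2-ctrl and 474 toward LC-AI-ctrl, and 1108 of the 1165 genes kept theirs. No edge separates large from other differences, since 255 genes lay between 4 and 4.5 and 336 called genes between 3.5 and 4 on the log2 scale.

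**Figure D1:**
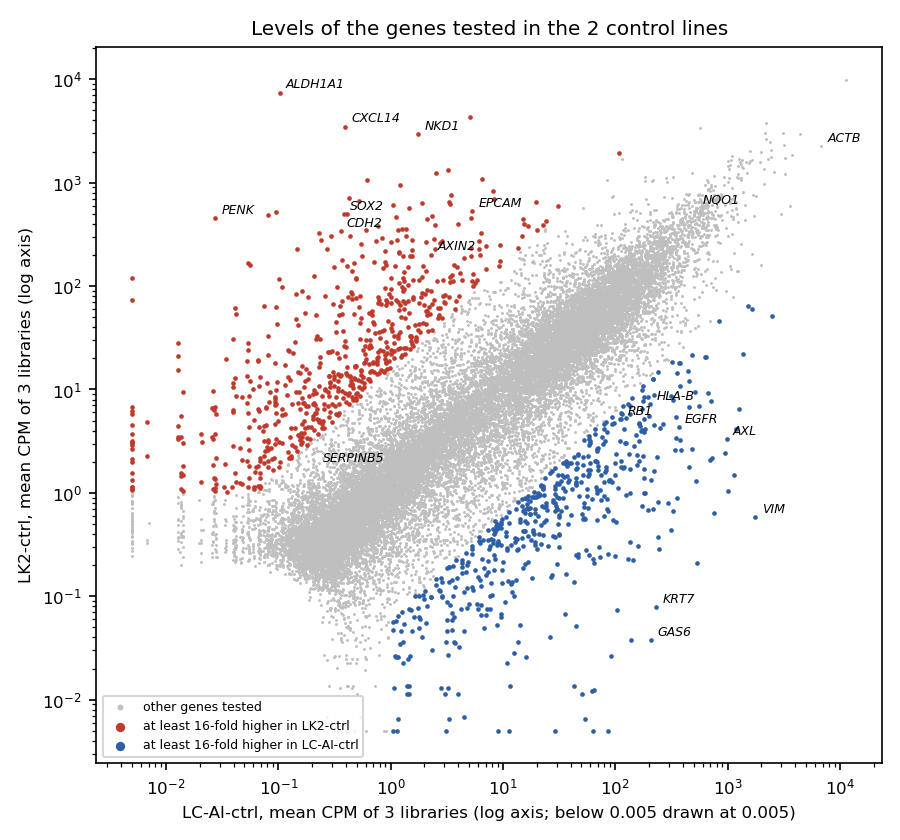
Mean CPM of each gene tested in LC-AI-ctrl (horizontal) and LK2-ctrl (vertical), 3 libraries each, both axes logarithmic, with means below 0.005 drawn at 0.005. The 634 genes at least 16-fold higher in LK2-ctrl are red and the 531 at least 16-fold higher in LC-AI-ctrl are blue, and labelled genes are described in the text.

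The lineage factor TP63 and the basal keratins KRT5 and KRT14, which define squamous cells, were near or below 1 CPM in both lines, whereas squamous genes that other epithelia also use were present. PERP, a desmosomal protein, averaged 740 against 94.9 CPM, and the transcription factors KLF5 (61.5 against 14.5 CPM) and TFAP2A (34.1 against 11 CPM) were likewise higher in LK2-ctrl. TP63, the master regulator of the squamous lineage, was at 0.722, 1.54 and 1.26 CPM in the 3 LK2-ctrl libraries and at 0.941, 0.579 and 0.382 CPM in the LC-AI-ctrl libraries. These ranges overlap, although the fit called a log2 difference of 0.89 ± 0.35 (SE, adjusted p = 0.0392), which was not called by DESeq2, with a replicate block, in the maspin libraries, or without LK2-ctrl replicate 2 (0.64), LC-AI-ctrl replicate 2 (0.81) or LC-AI-ctrl replicate 3 (0.63). KRT5 averaged 0.722 ± 0.186 CPM in LK2-ctrl and 0.0419 ± 0.0425 in LC-AI-ctrl (SD, n = 3 each, as in all values below), KRT6A 1.25 ± 0.342 and 0.0954 ± 0.0277, and KRT14 was too low to be tested, with at most 0.366 CPM in a library.
SOX2 separated the lines. It stood at 523, 490 and 477 CPM in LK2-ctrl and at 0.287, 0.212 and 0.658 CPM in LC-AI-ctrl libraries, a log2 difference of 10.35 ± 0.18 (10.95 without LC-AI-ctrl replicate 3).
Of 38 squamous genes listed, 23 passed the filter on low counts. Of these, 16 were called higher in LK2-ctrl, 4 higher in LC-AI-ctrl and 3 not called. At least 16-fold differences were found for SOX2, for the desmosomal cadherin DSC3 (60.7 ± 2.69 against 1.32 ± 0.111 CPM) and for the alcohol dehydrogenase ADH7 (1.09 against 0.0265 CPM) toward LK2-ctrl. Toward LC-AI-ctrl they were found for the desmosomal plaque protein PKP1 (0.317 ± 0.0638 against 8.90 ± 0.545 CPM) and the calcium-binding protein S100A2 (0.70 ± 0.243 against 13.1 ± 1.34 CPM).

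The epithelial genes were mostly higher in LK2-ctrl. All 43 genes listed were tested, 34 were higher in LK2-ctrl, 7 were higher in LC-AI-ctrl and 2 were not called. Large differences were seen for 15 genes toward LK2-ctrl and for 2 toward LC-AI-ctrl, and the median log2 difference was 2.83 (all genes tested, 0.10). E-cadherin (CDH1) stood at 106, 118 and 119 CPM in LK2-ctrl and at 2.84, 2.33 and 3.61 CPM in LC-AI-ctrl libraries. EPCAM, a surface adhesion molecule of epithelia, stood at 565, 551 and 480 CPM against 6.30, 4.40 and 5.37 CPM. The lines did not overlap in either gene, with log2 differences of 5.29 ± 0.12 and 6.64 ± 0.12.
Regulators of the epithelial state showed wider gaps. ESRP1, which directs epithelial splicing, averaged 226 ± 5.58 CPM in LK2-ctrl and 0.274 ± 0.234 in LC-AI-ctrl. The transcription factor GRHL2 averaged 89.5 ± 2.78 and 0.163 ± 0.0719 CPM, and the membrane protease ST14 (matriptase) 306 ± 13.5 and 0.432 ± 0.178 CPM. RAB25, a GTPase of apical recycling, had 8593 counts over the LK2-ctrl libraries and 6 over the LC-AI-ctrl libraries. Where the lower line is this close to 0, the fitted size of a difference rests on a few counts, and only the levels are given.
Keratins of simple epithelia were mixed. KRT7 was at 0.0390, 0.154 and 0.0408 CPM in LK2-ctrl and at 230, 245 and 215 CPM in LC-AI-ctrl libraries. KRT8 (603 ± 33.5 against 1435 ± 66.3 CPM) and KRT18 (304 ± 5.58 against 596 ± 18.8 CPM) were abundant in both lines and higher in LC-AI-ctrl, by log2 differences of -1.25 ± 0.07 and -0.97 ± 0.06. KRT19 was higher in LK2-ctrl by a smaller margin (172 ± 10.8 against 124 ± 13.3 CPM, 0.47 ± 0.08).

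The sequence CAGGTG is an E-box of the kind bound by ZEB and SNAI repressors at epithelial genes. It was looked for on both strands in the 250 bases before and 50 after the start site (RefSeq, GRCh38.p14). Its end letters can be shared with some of the motifs below, so that the motif counts are not exclusive. Among genes with a single listed start, CAGGTG stood in 76 of 295 promoters of genes with large differences toward LK2-ctrl (25.8%), in 44 of 268 toward LC-AI-ctrl (16.4%) and in 2751 of all 13741 tested. The RAB25 and LAD1 promoters hold it and are shown up to the start site, with the E-boxes in capitals, since their genes differed widely between the lines (LAD1, an anchoring filament protein, 83.6, 78.5 and 59.1 CPM in LK2-ctrl against 1.13, 0.868 and 1.36 CPM in LC-AI-ctrl libraries). The match is a description of letters and not of binding.
RAB25 promoter, chr1:156060910-156061159, plus strand: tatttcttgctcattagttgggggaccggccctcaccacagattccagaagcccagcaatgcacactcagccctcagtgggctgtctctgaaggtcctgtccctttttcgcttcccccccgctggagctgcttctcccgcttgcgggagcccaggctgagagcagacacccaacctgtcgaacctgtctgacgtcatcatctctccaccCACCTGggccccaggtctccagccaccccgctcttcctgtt
LAD1 promoter, chr1:201399325-201399574, minus strand: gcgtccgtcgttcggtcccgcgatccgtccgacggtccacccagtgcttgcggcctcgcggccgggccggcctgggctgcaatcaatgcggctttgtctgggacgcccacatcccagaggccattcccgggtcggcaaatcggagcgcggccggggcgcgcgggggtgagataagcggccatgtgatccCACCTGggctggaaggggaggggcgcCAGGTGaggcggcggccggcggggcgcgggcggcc

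Mesenchymal genes went mostly the other way. Of 45 listed and 44 tested, 27 were higher in LC-AI-ctrl, 11 higher in LK2-ctrl and 6 not called, with large differences for 16 and 4 genes and a median log2 difference of -1.92. Vimentin (VIM) stood at 0.507, 0.583 and 0.673 CPM in LK2-ctrl and at 1808, 1834 and 1667 CPM in LC-AI-ctrl libraries, a log2 difference of -11.55 ± 0.11. ZEB1, a repressor of CDH1, averaged 1.94 ± 0.153 against 59.2 ± 3.37 CPM. The cross-linking enzyme TGM2 (1.03 ± 0.137 against 1001 ± 89.3 CPM) and CAVIN1, a coat protein of caveolae (2.43 ± 0.590 against 941 ± 14 CPM), were also far apart. Fibronectin (FN1) was at 10.9 ± 1.90 and 177 ± 21.7 CPM, just past the 16-fold line with a log2 difference of -4.03 ± 0.13.
N-cadherin (CDH2), which often replaces E-cadherin in mesenchymal cells, was found in the line with high E-cadherin. It stood at 312, 349 and 359 CPM in LK2-ctrl and at 0.389, 0.328 and 0.361 CPM in LC-AI-ctrl libraries, a log2 difference of 9.88 ± 0.12. TWIST1, a transcription factor of mesenchyme, was also higher in LK2-ctrl (44.9 ± 4.21 against 11.1 ± 0.786 CPM). Of the collagen I chains, COL1A1 was higher in LK2-ctrl (15.4 ± 4.04 against 6.26 ± 0.821 CPM) and COL1A2 higher in LC-AI-ctrl (0.613 ± 0.249 against 31.6 ± 8.09 CPM).

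**Figure D2:**
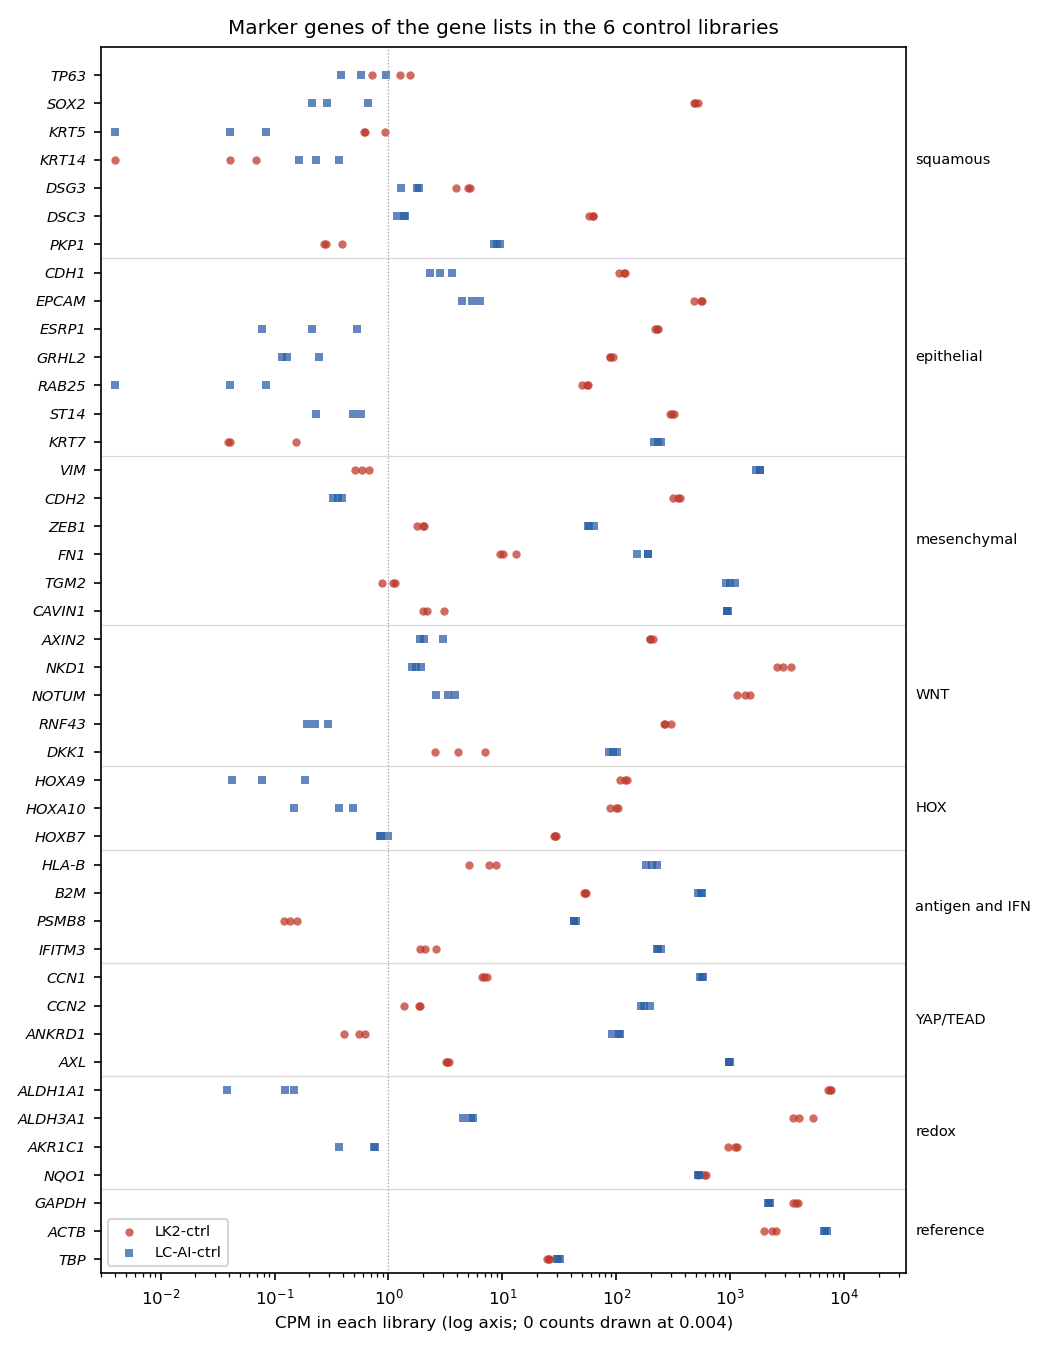
CPM of marker genes in each of the 3 LK2-ctrl (red circles) and 3 LC-AI-ctrl (blue squares) libraries, on a logarithmic axis with 0 counts drawn at the left edge and a dotted line at 1 CPM. CDH1, EPCAM and CDH2 lie to the right in LK2-ctrl and VIM, ZEB1 and KRT7 in LC-AI-ctrl, while TP63 lies near or below 1 CPM in both lines.

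Several enzymes that oxidize or reduce aldehydes and ketones were among the widest differences, in both directions. ALDH1A1, which makes retinoic acid, stood at 7172, 7468 and 7693 CPM in LK2-ctrl and at 0.123, 0.0386 and 0.149 CPM in LC-AI-ctrl libraries. The fitted log2 difference of ALDH1A1 was the largest of all genes described. It rests on 15 counts over the LC-AI-ctrl libraries, so that only the levels are given. ALDH3A1, which clears aldehydes from lipid oxidation, stood at 5303, 4027 and 3552 CPM against 5.55, 5.25 and 4.52 CPM. The aldo-keto reductases AKR1C1 (1070 ± 104 against 0.622 ± 0.222 CPM), AKR1C2 (496 ± 76.8 against 0.406 ± 0.0563 CPM) and AKR1C3 (328 ± 18.6 against 0.232 ± 0.116 CPM) are close in sequence, so that the split of reads among them is uncertain. Toward LC-AI-ctrl, the carbonyl reductase CBR1 averaged 0.256 ± 0.205 against 46.9 ± 1.22 CPM, and outside the lists the aldehyde oxidase AOX1 (0.222 ± 0.0567 against 144 ± 6.36 CPM) and the aldehyde dehydrogenase ALDH7A1 (0.956 ± 0.136 against 124 ± 5.41 CPM) had the same direction.
ALDH1A1, ALDH3A1, the AKR1C genes and CBR1 belong to a list of 47 targets and partners of NRF2, the transcription factor that answers oxidative stress by binding antioxidant response elements. Of 46 tested, 27 were higher in LK2-ctrl, 13 higher in LC-AI-ctrl and 6 not called, with 9 and 2 large differences and a median of 0.70 on the log2 scale. The list did not move as a whole. NQO1, the most used reporter of NRF2, was at 614, 585 and 526 CPM in LK2-ctrl and at 525, 530 and 528 CPM in LC-AI-ctrl libraries, with overlapping ranges (0.12 ± 0.07, adjusted p = 0.125). With library size only or upper-quartile scaling NQO1 was called higher in LK2-ctrl (0.34 in both), as it was without LK2-ctrl replicate 3 (0.19).
GPX2, a glutathione peroxidase of epithelia, averaged 179 ± 25.4 CPM in LK2-ctrl and 0.367 ± 0.150 in LC-AI-ctrl, and its promoter (RefSeq, GRCh38.p14) is shown because it holds the letters TGACNNNGC of an antioxidant response element on the reverse strand, in capitals. These letters stood in 34 of 295 promoters of genes higher in LK2-ctrl (11.5%), 38 of 268 higher in LC-AI-ctrl (14.2%) and 1985 of 13741 tested (14.4%), and can overlap the AP-1 motif TGACTCA. AP-1 letters were found in 2.37%, 5.6% and 4.11% of these promoters.
GPX2 promoter, chr14:64942746-64942995, minus strand: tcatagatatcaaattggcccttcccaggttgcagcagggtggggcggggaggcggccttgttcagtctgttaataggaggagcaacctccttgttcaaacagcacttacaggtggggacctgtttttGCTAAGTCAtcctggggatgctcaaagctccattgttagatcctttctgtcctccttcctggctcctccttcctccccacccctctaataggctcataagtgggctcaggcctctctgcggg

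Genes of the WNT pathway formed another group that was higher in LK2-ctrl. WNT ligands bind FZD receptors, and stabilized beta-catenin then drives TCF/LEF factors, whose targets include feedback inhibitors of the pathway. Of 41 genes listed, 36 were tested, with 21 higher in LK2-ctrl, 11 higher in LC-AI-ctrl and 4 not called. Large differences were counted for 13 and 3, and the median log2 difference was 1.44. The feedback inhibitor AXIN2 stood at 196, 199 and 210 CPM in LK2-ctrl and at 2.99, 1.89 and 2.04 CPM in LC-AI-ctrl libraries (6.45 ± 0.13). NKD1, which dampens dishevelled, stood at 2543, 2892 and 3397 CPM against 1.92, 1.60 and 1.74 CPM (10.71 ± 0.14). NOTUM, an enzyme that inactivates WNT ligands, averaged 1328 ± 164 against 3.25 ± 0.614 CPM, and RNF43, a ligase that removes FZD receptors, 277 ± 19.4 against 0.238 ± 0.0534 CPM. All 4 are inhibitors by function.
The transcription factor LEF1 was higher in LK2-ctrl by less than 16-fold (184 ± 6.40 against 14.5 ± 0.937 CPM). The secreted antagonists split. DKK2 averaged 482 ± 104 CPM in LK2-ctrl and 0.0813 ± 0.00390 in LC-AI-ctrl, whereas DKK1 stood at 2.57, 4.10 and 7.09 CPM in LK2-ctrl and at 86.7, 101 and 92.8 CPM in LC-AI-ctrl (-4.35 ± 0.34). Among receptors, 7 of 10 FZD genes tested were higher in LK2-ctrl and 3 higher in LC-AI-ctrl, with 3 and 1 large differences. These were counted after their values were seen. FZD10 was higher in LK2-ctrl (43.2 ± 3.75 against 0.0972 ± 0.0996 CPM) and FZD7 in LC-AI-ctrl (4.06 against 174 CPM).
SP5, a transcription factor and target of beta-catenin, averaged 57.8 ± 1.5 against 0.688 ± 0.176 CPM. Its promoter (RefSeq, GRCh38.p14) carries the TCF/LEF letters CTTTGAT, in capitals, found in 7 of 295 promoters of genes higher in LK2-ctrl (2.37%), 1 of 268 higher in LC-AI-ctrl (0.373%) and 282 of 13741 tested (2.05%).
SP5 promoter, chr2:170715087-170715336, plus strand: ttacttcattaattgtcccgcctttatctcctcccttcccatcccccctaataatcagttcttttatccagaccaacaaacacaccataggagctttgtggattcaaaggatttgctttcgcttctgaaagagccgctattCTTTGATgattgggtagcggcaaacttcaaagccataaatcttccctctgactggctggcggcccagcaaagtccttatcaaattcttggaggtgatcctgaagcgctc

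Genes of other developmental signals differed in both directions. SHH, a hedgehog ligand, stood at 290, 232 and 240 CPM in LK2-ctrl and at 0.696, 0.424 and 0.509 CPM in LC-AI-ctrl libraries. Its receptor PTCH1 averaged 199 ± 33.6 and 15.6 ± 0.994 CPM, while the pathway's effector GLI1 was below 1 CPM in all 6 libraries (0.22 ± 0.28, adjusted p = 0.511). Of 16 hedgehog genes tested, 8 were higher in LK2-ctrl, 2 higher in LC-AI-ctrl and 6 not called, and SHH was the only large difference. The shares called (62.5%) and large (6.25%) were near those of all genes tested (63.8% and 4.45%). The growth factors FGF19 (526 ± 40.1 against 0.0960 ± 0.131 CPM) and FGF3 (168 ± 9.34 against 0.0533 ± 0.0288 CPM), both on chromosome 11, were among the 15 largest differences toward LK2-ctrl. FGF4, also on chromosome 11, was at 0.514 against 0.0535 CPM, under 16-fold. The opioid peptide precursor PENK (452 ± 56.5 against 0.0273 ± 0.0473 CPM), the homeobox gene DLX5 (230 ± 22.3 against 0.146 ± 0.129 CPM) and the secreted protein NELL2 (718 ± 26.7 against 0.424 ± 0.294 CPM) were among these 15 too. Other growth factors of the FGF family lay toward LC-AI-ctrl, such as FGF1 (0.401 ± 0.0636 against 31.6 ± 0.690 CPM) and FGF5 (3.2 ± 0.452 against 59.0 ± 5.78 CPM). Of 20 FGF genes tested 7 were higher in LK2-ctrl and 5 higher in LC-AI-ctrl, where all genes tested had 32.1% and 31.7%. CXCL14, an epithelial chemokine, stood at 3003, 3547 and 3896 CPM in LK2-ctrl and at 0.491, 0.270 and 0.424 CPM in LC-AI-ctrl libraries. The non-coding LINC02178 had 11621 counts over the LK2-ctrl libraries and none over the LC-AI-ctrl libraries, at least 3609-fold higher against a floor of 3 counts over the group. Most counts hold both mates of a fragment, so that this and the other bounds and intervals set by such floors would be lower or wider if fragments were counted.

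HOX genes keep the position of a cell along the body axis. Of 39 listed, 35 were tested, 24 were higher in LK2-ctrl, 9 higher in LC-AI-ctrl and 2 not called, with 11 and 2 large differences and a median of 1.39 on the log2 scale. HOXA9 stood at 124, 119 and 108 CPM in LK2-ctrl and at 0.184, 0.0771 and 0.0424 CPM in LC-AI-ctrl libraries. HOXA10 (97.1 ± 7.60 against 0.335 ± 0.173 CPM) and HOXB7 (29.0 ± 0.545 against 0.901 ± 0.0843 CPM) showed the same direction. HOXB13 had 509 counts over the LK2-ctrl libraries and none over the LC-AI-ctrl libraries, at least 158-fold higher. HOXA3, at the near end of the same cluster, differed little (15.3 against 10.8 CPM).
Some factors of lung and gut endoderm differed widely. FOXA2 averaged 102 ± 6.22 against 1.44 ± 0.284 CPM, and NKX2-1, the marker of glandular lung cells, 5.98 ± 0.284 against 0.210 ± 0.0841 CPM. Of 18 lung lineage genes tested, 8 were higher in LK2-ctrl, 2 higher in LC-AI-ctrl and 8 not called, with 3 large differences. GATA4, an endoderm factor outside the list, was higher in LC-AI-ctrl (0.307 ± 0.0393 against 15.2 ± 0.934 CPM). Of 25 neuroendocrine genes tested, 10 were higher in LK2-ctrl, 4 higher in LC-AI-ctrl and 11 not called. The shares called, 55.6% of the lung lineage and 56% of the neuroendocrine genes, were below the 63.8% of all genes tested. Large differences made up 16.7% and 24% of these lists, against 4.45% of all genes tested. The transcription factor INSM1 (28.9 ± 2.36 against 0.142 ± 0.0543 CPM) and the adhesion molecule NRCAM (306 ± 20.4 against 1.37 ± 0.358 CPM) were high in LK2-ctrl, but the defining marker CHGA (0.202 and 0.345 CPM) was low in both lines and not called, and SYP was higher in LC-AI-ctrl (0.226 against 3.84 CPM).

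Genes of antigen presentation and of the interferon response were lower in LK-2 cells. Class I HLA molecules show peptides, cut by the immunoproteasome, on the cell surface together with B2M. Of 44 genes listed, 43 were tested, 33 were higher in LC-AI-ctrl, 4 higher in LK2-ctrl and 6 not called, with large differences for 13 genes, all toward LC-AI-ctrl, and a median log2 difference of -2.73. HLA-B stood at 5.05, 7.70 and 8.72 CPM in LK2-ctrl and at 229, 205 and 181 CPM in LC-AI-ctrl libraries (-4.84 ± 0.18). B2M averaged 52.9 ± 0.896 against 545 ± 18.3 CPM, under 16-fold. Reads of HLA genes can be misplaced among alleles and copies, which makes their levels uncertain.
The immunoproteasome subunit PSMB8 averaged 0.138 ± 0.0169 against 43.2 ± 1.26 CPM, and the membrane protein IFITM3, which blocks virus entry, 2.21 ± 0.384 against 235 ± 8.10 CPM. STING1, the adaptor of cytosolic DNA sensing, averaged 0.140 ± 0.0486 against 11.1 ± 2.34 CPM. Of 31 cytokine genes tested, 21 were higher in LC-AI-ctrl, 7 higher in LK2-ctrl and 3 not called, with a median of -1.62. Large differences were 5 toward LC-AI-ctrl and 1 toward LK2-ctrl, the chemokine CXCL14 (3482 against 0.395 CPM). Because of CXCL14 the summed level of the list was higher in LK2-ctrl (3092 to 3980 against 403 to 433 CPM). IL6 (0.938 against 0.439 CPM) and CCL2 (0.396 against 0.0540 CPM) were low in both lines and also higher in LK2-ctrl. CSF1 (0.557 ± 0.161 against 51.5 ± 1.62 CPM), CXCL5 (0.579 ± 0.183 against 31.4 ± 2.35 CPM) and LIF (0.747 ± 0.0493 against 29.6 ± 3.95 CPM) were on average below 1 CPM in LK2-ctrl.

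**Figure D3:**
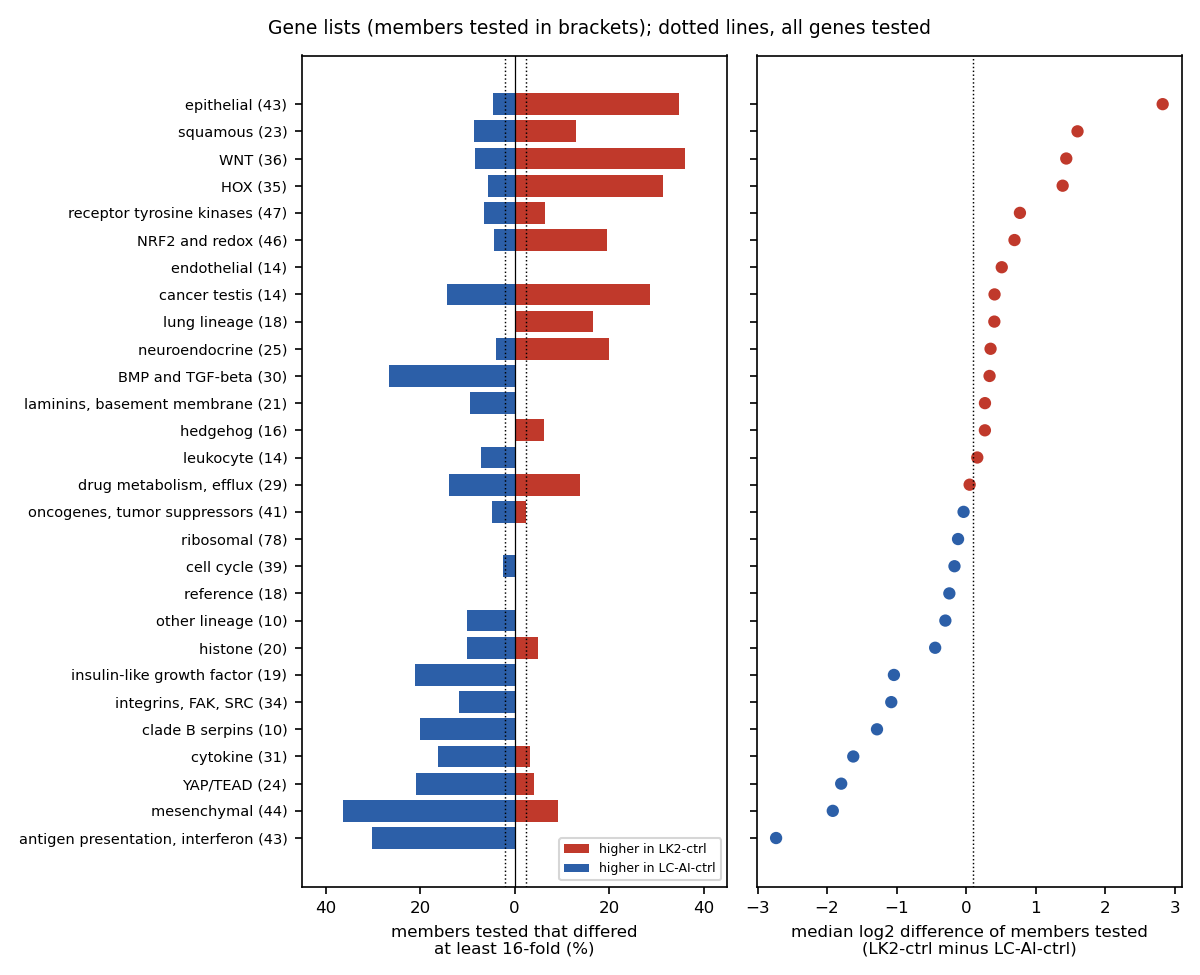
Left, share of the members tested in each gene list that differed at least 16-fold, toward LK2-ctrl (red, right) or LC-AI-ctrl (blue, left), with dotted lines at the shares over all genes tested (2.42% and 2.03%); right, median log2 difference of the members tested, with a dotted line at the median of all genes (0.10). Epithelial, WNT and HOX genes lie toward LK2-ctrl and mesenchymal, antigen presentation and YAP/TEAD genes toward LC-AI-ctrl.

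RERF-LC-AI cells had more RNA of several receptors and of matrix contacts. EGFR stood at 4.84, 4.20 and 3.89 CPM in LK2-ctrl and at 357, 374 and 365 CPM in LC-AI-ctrl libraries (-6.40 ± 0.09). The receptor AXL stood at 3.39, 3.24 and 3.22 CPM against 976, 987 and 978 CPM (-8.22 ± 0.08), and its ligand GAS6 had 6 counts over the LK2-ctrl libraries against 210 ± 16.9 CPM in LC-AI-ctrl. FGFR1 (1035 ± 68.0 against 185 ± 4.34 CPM) and the ephrin receptor EPHA4 (159 ± 7.06 against 0.907 ± 0.474 CPM) were higher in LK2-ctrl. Over 47 receptor tyrosine kinases, 26 were higher in LK2-ctrl, 13 higher in LC-AI-ctrl and 8 not called, with 3 large differences each way, so that this family had no single direction.
Integrins anchor cells to laminin, fibronectin and collagen. Of 34 integrin and focal adhesion genes, 22 were higher in LC-AI-ctrl, 7 higher in LK2-ctrl and 5 not called, with 4 large differences, all toward LC-AI-ctrl. ITGA3, a laminin receptor chain, averaged 9.32 ± 1.05 against 663 ± 46.1 CPM, and ITGA5, of the fibronectin receptor, 0.927 ± 0.491 against 47.6 ± 4.25 CPM. Among 21 laminin and basement membrane genes, 11 were higher in LK2-ctrl and 8 higher in LC-AI-ctrl, with large differences for perlecan (HSPG2, 12 ± 1.4 against 457 ± 16.2 CPM) and LAMB3 (2.22 ± 0.277 against 42.6 ± 0.510 CPM).
In the TGF-beta and BMP list 16 of 30 genes were higher in LK2-ctrl and 12 higher in LC-AI-ctrl, but all 8 large differences lay toward LC-AI-ctrl. TGFB1 was at 2.07, 2.19 and 5.77 CPM against 64.3, 57.3 and 52.5 CPM (-4.13 ± 0.40, and -4.76 without LK2-ctrl replicate 3). Of 19 genes of the insulin-like growth factor axis, 12 were higher in LC-AI-ctrl, 5 higher in LK2-ctrl and 2 not called. The binding protein IGFBP3 averaged 22.1 ± 2.30 against 1382 ± 278 CPM.

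Targets of YAP and TAZ, which act through TEAD factors when cells spread on a stiff matrix, were mostly higher in LC-AI-ctrl. Of 24 tested, 19 were higher in LC-AI-ctrl, 3 higher in LK2-ctrl and 2 not called, with 5 and 1 large differences and a median of -1.80. CCN1 (6.95 ± 0.405 against 560 ± 19.1 CPM) and CCN2 (1.71 ± 0.298 against 180 ± 17.5 CPM), secreted matrix proteins, and the nuclear protein ANKRD1 (0.524 ± 0.107 against 101 ± 8.63 CPM) are the targets most often measured. The TEAD cofactor WWTR1 was at similar levels in both lines (68.4 against 62.2 CPM), not called here but called higher in LK2-ctrl with library size only.
Promoters of CCN2 and ANKRD1 (RefSeq, GRCh38.p14) are shown because the letters CATTCC, the core of a TEAD site, occur in them 3 and 2 times before the start, here all as the reverse complement GGAATG in capitals. The letters stood in 46 of 268 promoters of genes higher in LC-AI-ctrl (17.2%), 37 of 295 higher in LK2-ctrl (12.5%) and 1727 of 13741 tested (12.6%).
CCN2 promoter, chr6:131951373-131951622, minus strand: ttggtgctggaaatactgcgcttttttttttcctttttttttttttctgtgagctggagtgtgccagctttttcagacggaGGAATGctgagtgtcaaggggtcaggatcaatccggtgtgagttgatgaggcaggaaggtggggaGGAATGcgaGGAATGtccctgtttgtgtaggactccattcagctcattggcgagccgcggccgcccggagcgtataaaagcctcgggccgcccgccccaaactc
ANKRD1 promoter, chr10:90921088-90921337, minus strand: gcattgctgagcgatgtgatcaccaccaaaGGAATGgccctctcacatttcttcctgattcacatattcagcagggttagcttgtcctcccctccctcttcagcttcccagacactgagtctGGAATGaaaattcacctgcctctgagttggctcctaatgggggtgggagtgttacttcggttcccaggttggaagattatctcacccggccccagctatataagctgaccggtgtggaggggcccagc

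Among oncogenes and tumor suppressors of lung cancer the lines differed in the RB pathway. RB1, which holds cells before S phase, stood at 5.03, 4.30 and 6.07 CPM in LK2-ctrl and at 110, 120 and 107 CPM in LC-AI-ctrl libraries (-4.46 ± 0.11). CDKN2C, an inhibitor of CDK4 and CDK6, averaged 0.924 ± 0.273 against 79.9 ± 8.43 CPM, and cyclin D2 (CCND2) 0.366 ± 0.0882 against 12.7 ± 1.67 CPM. CDKN2A, another inhibitor of these kinases, was higher in LK2-ctrl (310 ± 13.5 against 80.7 ± 3.80 CPM).
SMARCA4, the ATPase of a chromatin remodelling complex, stood at 442, 438 and 401 CPM against 24.5, 23.1 and 25 CPM (4.14 ± 0.08). MYC was present in both (299 ± 9.56 and 189 ± 9.85 CPM). Of 41 genes of this list, 16 were higher in LK2-ctrl, 17 higher in LC-AI-ctrl and 8 not called, and 3 differed at least 16-fold.
Proliferation and housekeeping genes were closer between the lines. Of 39 cell cycle genes, 18 were higher in LC-AI-ctrl, 10 higher in LK2-ctrl and 11 not called, and CCND2 was the only large difference. MKI67, the proliferation marker, averaged 699 ± 57.6 and 626 ± 52.0 CPM, with overlapping ranges (0.16 ± 0.08, adjusted p = 0.0891), and was called higher in LK2-ctrl without LK2-ctrl replicate 3 (0.23) or with library size only (0.38). None of 78 ribosomal protein genes and none of 18 reference genes differed 16-fold, although 56 of the former and 14 of the latter passed the test. GAPDH was higher in LK2-ctrl (3748 ± 184 against 2191 ± 45.6 CPM) and ACTB was higher in LC-AI-ctrl (2261 ± 266 against 6785 ± 199 CPM). The medians of the cell cycle, ribosomal and cancer gene lists were -0.17, -0.12 and -0.04, and with library size only they turned to 0.05, 0.10 and 0.18, so that they carry no direction. The reference list had a median of -0.24 (-0.02 with library size only).

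Cancer-testis antigens, normally silent outside the germ line, were expressed from different genes in each line. XAGE1B had no count in LK2-ctrl and 86.1 ± 3.86 CPM in LC-AI-ctrl, at least 4561-fold higher there. MAGEA3 stood at 66.9, 63.0 and 53.2 CPM in LK2-ctrl and at 0, 0.0386 and 0.0849 CPM in LC-AI-ctrl libraries. Of 33 genes of this list, 14 were tested, 5 were higher in LK2-ctrl, 4 higher in LC-AI-ctrl and 5 not called. The share called, 64.3%, was near the 63.8% of all genes tested. These families have near-identical copies, among which reads cannot be placed with certainty.
The other largest differences toward LC-AI-ctrl were of varied function. CAVIN3, of the caveolar coat, had no count in LK2-ctrl and 63.5 ± 6.54 CPM in LC-AI-ctrl, at least 3357-fold higher, and the protease inhibitor CST6 likewise 29.2 ± 3.89 CPM, at least 1546-fold higher. APOBEC3B, a cytidine deaminase, had 1 count in LK2-ctrl and 8033 in LC-AI-ctrl, a ratio of 8622 (95% exact interval 1547 to 340570, counting error only). GSTM1, a glutathione transferase, had 2 counts against 9538, a ratio of 5118 (1416 to 42270). The calcium-binding protein S100A16 (0.0374 ± 0.0391 against 137 ± 7.55 CPM) and the metallothionein MT1E (0.208 ± 0.102 against 533 ± 28.3 CPM), a metal buffer, were of this group too. Among genes of drug metabolism, 13 of 29 were higher in each line and 3 not called, with MGMT, which repairs alkylated DNA, at 0.333 ± 0.137 against 19.3 ± 0.480 CPM.

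Markers of cells other than carcinoma cells were low. Of 20 leukocyte markers 14 were tested, 4 were higher in LK2-ctrl and 2 in LC-AI-ctrl, and their summed level was 29.4 to 43.5 CPM in LK2-ctrl and 58.2 to 62.6 CPM in LC-AI-ctrl libraries. Most of this was CD8A in LK2-ctrl (25.6 CPM) and the lysosomal CD68 in LC-AI-ctrl (46.6 CPM). PTPRC, which defines leukocytes, was at 1.11 and 0.263 CPM and CD3D had no count in any library. The 15 endothelial markers summed to 26.4 to 34.1 and 44.1 to 51.6 CPM, with PECAM1 at 3.57 and 1.64 CPM and CDH5 at 0.319 and 0.191 CPM. Of 16 markers of muscle, melanocytes and liver, the sums were 9.42 to 14.2 and 12.1 to 13.9 CPM.

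Maspin (SERPINB5, gene ID 5268, chromosome 18), the gene that the study expresses from a vector, was scarce in both control lines. It stood at 1.87, 1.87 and 1.71 CPM in LK2-ctrl and at 0.287, 0.154 and 0.212 CPM in LC-AI-ctrl libraries, without overlap. The log2 difference was 3.05 ± 0.29 (adjusted p = 2.1e-07), under the 16-fold line, and rests on 289 and 32 counts over the 3 libraries. In the libraries with the maspin vector the order turned, with a log2 difference of -3.45 between LK2-maspin and LC-AI-maspin. Of its 10 clade B relatives tested, maspin included, 6 were higher in LC-AI-ctrl, 2 higher in LK2-ctrl and 2 not called. SERPINB2, an inhibitor of urokinase, averaged 0.111 ± 0.0670 against 4.53 ± 0.491 CPM, and SERPINB7 0.291 ± 0.0303 against 10.9 ± 1.36 CPM. Of the kinases that the study follows, PTK2B (PYK2) was low, at 2.42, 2.33 and 3.75 CPM in LK2-ctrl and at 5.91, 4.30 and 5.58 CPM in LC-AI-ctrl (-0.90 ± 0.20, adjusted p = 0.00101), while its relative PTK2 (FAK) was at 199 ± 2.41 and 131 ± 4.80 CPM and SRC at 47.3 ± 3.37 and 28.4 ± 1.4 CPM.

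The maspin libraries, which the comparison above did not use, gave the same picture of the lines, within the same tables and batches. Of the 1165 genes with large differences between the control lines, 1164 were tested there, and all 1164 differed in the same direction at an adjusted p under 0.05. A large difference by the same rule was met by 989 of them, which is 84.9% of the 1165 and 90.1% of the 1098 genes (4.14% of 26535 tested) that met it in the maspin libraries. The log2 difference of a gene moved by 0.40 in the median, and the smallest among these genes was 1.55 in size. EGFR (-6.40 and -5.82), VIM (-11.55 and -11.33), CDH2 (9.88 and 9.36), AXIN2 (6.45 and 6.76) and RB1 (-4.46 and -4.41) lay close in the control and maspin libraries, whereas IGFBP3 (-5.97 and -3.38) and DKK1 (-4.35 and -1.94) lay further apart.

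**Figure D4:**
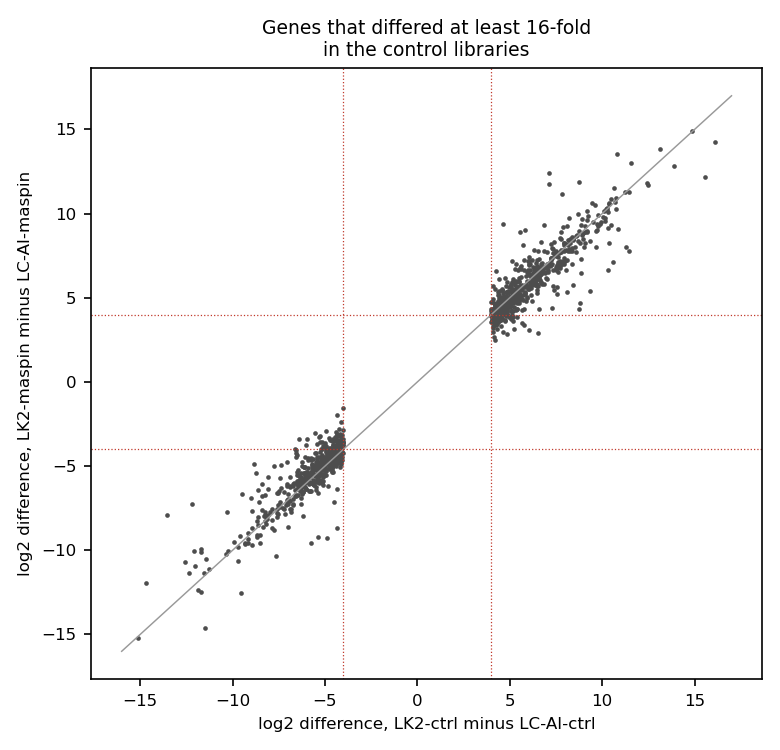
Log2 difference between the lines in the control libraries (horizontal) and in the maspin libraries (vertical) for the genes with large differences in the former, with dotted lines at 16-fold and a grey line of equality. No gene lies in the upper left or lower right, and 989 of 1165 keep a large difference.

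Along the genome, 18315 genes with at least 1 CPM in the higher line were placed on chromosomes 1 to 22 and X by the RefSeq annotation. Their median log2 difference was -0.03. The X chromosome had the lowest median, -0.91 over 609 genes, of which 423 (69.5%) were lower in LK2-ctrl, followed by chromosome 19 with -0.38 over 1188 genes. Chromosome 8 (0.32 over 663 genes) and chromosome 18 (0.31 over 307 genes) had the highest. Large differences made up 3.94% (chromosome 15) to 9.05% (chromosome 8) of the genes, against 6.26% of all. Copy number was not measured, and its part in these values was not tested.
Windows of 25 neighbouring genes showed wider swings than whole chromosomes. The lowest 3 separate windows lay on chromosome 1 from CELF3 to S100A16 (median -2.84, 15 of 25 genes lower in LK2-ctrl), on chromosome 18 from NAPG to ANKRD20A5P (-2.67, 20 of 25) and on chromosome 3 from THUMPD3-AS1 to IRAK2 (-2.23, 24 of 25). The first holds S100 genes, 7 of its genes differed at least 16-fold toward LC-AI-ctrl, and the others hold unrelated genes such as PTPN2, a phosphatase (13.8 against 163 CPM), and VHL, which marks hypoxia factors for degradation (85.3 against 346 CPM). The highest lay on chromosome 7 from HOXA3 to PRR15 (2.87, 20 of 25 higher in LK2-ctrl), on chromosome 2 from ABCB6 to SGPP2 (2.51, 20 of 25) and on X from LINC00894 to MAGEA1 (2.08, 16 of 25), where MAGEA copies share reads. Of all 17763 windows, 95% of medians lay between -1.16 and 0.86. PTPN2 and VHL were named after their values were seen.

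**Figure D5:**
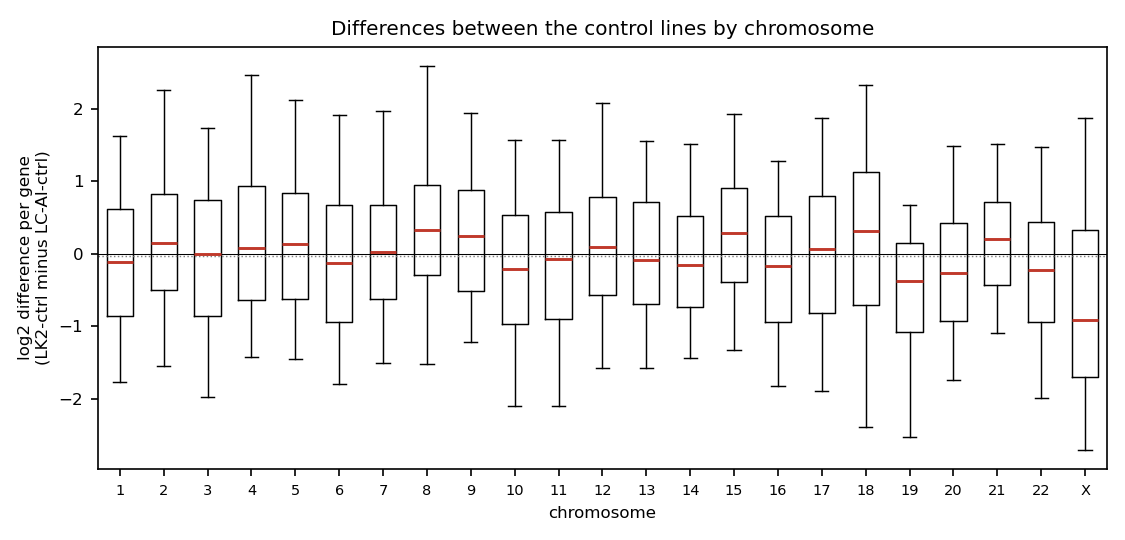
Log2 difference per gene by chromosome, with the median in red, boxes for the quartiles and whiskers for the outer deciles, and a dotted line at the median of all genes placed (-0.03). The X chromosome lies lowest, with a median of -0.91.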

How the data were processed

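The deposited gene tables of both lines, 1 per line, were analysed for the control libraries. Per the labels and methods the authors trimmed reads with Trimmomatic 0.39 and aligned them by BWA 0.7.17 to the GRCh38.p13 genome, and the submitters' processing notes name SAMtools 1.12 (LK-2), SAMtools 1.10 (RERF-LC-AI) and edgeR 3.16.5. The deposited values used are counts of mapped reads per gene. Signal columns, which are the authors' scaled versions of the same counts, were left aside. The sources used here give neither the counting program nor its strand setting. Only 23.7 to 26.0% of counts between 1 and 9 were odd, so most counts hold both mates of a fragment, and intervals and floors cover counting error only. The tables share 38434 gene symbols. A further 646 lines without a symbol, holding 0.410 to 0.416% of counts in LK2-ctrl and 0.292 to 0.298% in LC-AI-ctrl, stayed out of library sizes and tests, and the listed genes encoded by mitochondrial DNA were not analysed here.

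The fit used edgeR 4.0.16 in R 4.3.3 (quasi-likelihood test, TMM factors of 0.901 to 1.11, default filter with minimum count 10 and total 15, Benjamini–Hochberg adjustment at 0.05). It was also run on simulated counts with few changed genes and the same spread in both lines. That setting is simpler than these data, so that the run does not measure the error rate or the scaling of the fit here. The fit to the data was repeated with other scalings (RLE, upper quartile, none beyond library size), without a filter or with at least 10 counts per library, with the likelihood ratio test, DESeq2 1.42.0 and glmTreat, with a replicate block, with all 12 libraries, on the maspin libraries, at a threshold of 0.01, and with single libraries left out. Python 3.11.15, pandas 2.3.3, SciPy 1.17.1 and matplotlib 3.10.9 made the summaries and figures.

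The comparison, 29 gene lists and naming rule were chosen with earlier results of these data known. By that rule the text may name key genes of a list, the 5 largest of its at least 16-fold differences, the 15 largest overall each way at 10 CPM or more in the higher line, the 5 genes of highest CPM per line, the 3 listed genes closest between lines, and SERPINB5, PTK2B and SRC. Any other gene, and the promoter motifs, were chosen after values were seen. Genes of chromosome Y or with a LOC number only were counted but not named, and a few genes that the rule names are not reported here. Promoters are from RefSeq (GRCh38.p14), with a single listed start for 13741 genes tested.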

Additional observations from a re-analysis of the deposited data

Results flagged for a closer look

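The lines of the tables without a gene symbol were not used in the comparison and drew reads in every library. They held 0.413% of the counts in LK2-ctrl and 0.294% in LC-AI-ctrl libraries. Of the 646 lines, 307 averaged at least 1 CPM in a line, none differed at least 16-fold toward LK2-ctrl and 5 did so toward LC-AI-ctrl, by the ratio of the means with no test and a floor of 3 counts over the group.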

How the results depend on the processing

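The balance of calls turned with the scaling and test. It was 8413 higher and 8290 lower in LK2-ctrl as reported, 10775 and 6824 with library size only, 8005 and 8563 with RLE factors, 7615 and 8412 with DESeq2, and 6715 and 7410 at a threshold of 0.01. The number of at least 16-fold differences depended on the filter. With at least 10 counts required in every library, 686 such genes were left, 352 higher in LK2-ctrl and 334 higher in LC-AI-ctrl, since genes absent from a line are then not tested, and listed genes higher in LK2-ctrl fell from 78 to 46. A test against a 4-fold difference (glmTreat) called 2851 genes, 1453 higher and 1398 lower in LK2-ctrl. In the other settings on control libraries, 14125 to 17611 genes were called and 1162 to 1174 were at least 16-fold. Without 1 library, 15580 to 16562 genes were called and 1164 to 1177 were at least 16-fold. No gene with an at least 16-fold difference turned its sign in any setting. SERPINB5 turned to -3.45 in the maspin libraries, which carry the transgene. GLI1 turned to -0.16 in the maspin libraries, and the cause was not tested.

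Replicate numbers are shared by the lines. Deviations from the group mean correlated at -0.240, 0.203 and 0.0877 between same-numbered libraries over 10436 genes. Between libraries of different number the correlations ran from -0.336 to 0.278. Deviations within a group cancel out, so that these values cannot settle whether the numbers pair the samples. With a replicate block, 16339 genes were called and 1166 were at least 16-fold. Line, medium and batch cannot be told apart in any setting, and below about 1 CPM the levels rest on few counts.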

Other observations

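Several gene families outside the lists were counted after their values were seen, with no test of the family. For comparison, 32.1% of all genes tested were called higher in LK2-ctrl, 31.7% higher in LC-AI-ctrl, and 4.45% differed at least 16-fold. All 6 chorionic gonadotropin beta genes tested (CGB1, CGB2, CGB3, CGB5, CGB7 and CGB8), hormone subunits of the placenta, were at least 16-fold higher in LC-AI-ctrl. CGB8 was at 0.0780, 0 and 0 CPM in LK2-ctrl and at 14.8, 17.1 and 15.9 CPM in LC-AI-ctrl libraries, but these copies are near-identical and their reads cannot be placed with certainty. All 9 UGT1A genes, which conjugate drugs and bilirubin with glucuronic acid, were at least 16-fold higher in LK2-ctrl. They share their last exons, so that the 9 are not separate observations.

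Of 12 S100A genes tested, 11 were higher in LC-AI-ctrl, 5 of them at least 16-fold. S100A6 was at 1.72, 2.01 and 2.57 CPM in LK2-ctrl and at 757, 675 and 647 CPM in LC-AI-ctrl libraries. S100A14 alone was higher in LK2-ctrl (0.711 against 0.190 CPM). Of 7 metallothionein genes, which buffer zinc and copper, 6 were higher in LC-AI-ctrl, with MT2A at 60.5 against 1661 CPM, while MT1X was higher in LK2-ctrl (94.1 against 50.7 CPM). All 6 ARMCX genes, neighbours on the X chromosome, were higher in LC-AI-ctrl, 4 of them at least 16-fold, with ARMCX1 at 0.0516 against 44.8 CPM. Of 6 APOBEC3 genes, 5 were higher in LC-AI-ctrl and 1 was not called.

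The clustered protocadherins, adhesion molecules of neurons, split by cluster. Of 16 PCDHB genes, 13 were higher in LK2-ctrl and 2 higher in LC-AI-ctrl, with PCDHB5 at 97.6 against 0.108 CPM. Of 15 PCDHA genes, 11 were higher in LC-AI-ctrl and none in LK2-ctrl, and of 22 PCDHG genes, 15 and 1. Exons shared within the PCDHA and PCDHG clusters make their counts dependent. Of 17 SOX genes, 9 were higher in LK2-ctrl and 6 higher in LC-AI-ctrl. SOX4 (648 against 3.30 CPM), SOX14 (27.9 against 0.0535 CPM) and SOX21 (4.92 ± 3.14 against 0.248 ± 0.0926 CPM) were at least 16-fold higher in LK2-ctrl beside SOX2, although SOX21 had a log2 difference of 4.29 that dropped to 3.70 without LK2-ctrl replicate 1. Of 468 genes named ZNF and a number, most of them zinc finger factors, 247 were higher in LC-AI-ctrl and 116 in LK2-ctrl. The 15 at least 16-fold differences lay 13 to 2 toward LC-AI-ctrl. They made up 3.21% of the family, below the 4.45% of all genes tested.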
